A study of Mus musculus with 40 samples.

Results

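The carboxylesterases are serine hydrolases that cut ester, thioester and amide bonds. In the liver they activate or clear many drugs that carry an ester, and several members also cut triacylglycerol and other neutral lipids inside the endoplasmic reticulum, where very low density lipoprotein is assembled. Most members are held in the endoplasmic reticulum by a signal at the carboxyl end of the protein, and some are secreted into plasma. In the mouse the genes have multiplied into tandem arrays, so that close copies lie side by side. The 10 liver carboxylesterase genes described here (Ces1b, Ces1c, Ces1d, Ces1e, Ces1f, Ces1g, Ces2a, Ces2c, Ces3a and Ces3b) were taken by gene symbol from the deposited count tables, which held 40594 genes in common. All 10 were among the 12942 genes with at least 1 CPM (counts scaled to a fixed total per library) in at least 5 mice, and were therefore tested.

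Liver RNA was sequenced from 40 male mice, 5 months old and all labelled as C57BL6/J, in 8 groups of 5. Wild-type (WT) mice and mice whose liver lacks PPARγ (KO), obtained by crossing PPARγ-loxP mice with Alb-Cre mice, were fed a low-fat control diet or a high fat diet (HFD), and either diet was given as such or supplemented with pioglitazone (Pio or HFD-Pio groups). Pio is an insulin-sensitizing thiazolidinedione that activates PPARγ, and the design asks how its effect on liver genes depends on diet and on hepatocyte PPARγ. Alb-Cre is active in hepatocytes, so that the other cells of a KO liver keep the receptor. The mice carried individual numbers, and each number is 1 library. WT and KO counts came in separate tables, so that genotype and table cannot be told apart. Levels were not tested between genotypes, and the effects of Pio and HFD within each genotype were compared instead.

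Libraries held 15789401 to 49860981 counts in WT and 21542958 to 28334251 in KO mice. The library of KO Pio mouse 13 stood apart. Its median Spearman correlation with the other KO libraries was 0.773, against 0.936 to 0.991 for the other 39 libraries within their genotype. It held 0.853% mitochondrial counts, against 5.28% to 8.00% in the other KO Pio mice, and 10470 CPM of albumin mRNA (Alb), against 75730 to 110400 CPM. Of the 10 carboxylesterase genes, 6 had their lowest level of all 40 mice in KO Pio mouse 13 and the other 4 in KO HFD mouse 9. Results on KO Pio mice are therefore given with mouse 13 and, where they turn on it, also without. In total 5 libraries had a median correlation below 0.96, the other 4 being WT control mouse 832, WT HFD mouse 829, WT Pio mouse 845 and KO HFD mouse 9. Pparg, the gene deleted in KO liver, had 5.79 to 14.2 CPM in WT and 3.01 to 9.90 CPM in KO mice, and these ranges overlap. The count covers the whole gene, so that it checks the deletion only in part. Hepatocyte markers summed to 61420 CPM or more in every mouse but KO Pio mouse 13, where they summed to 32380 CPM. Of the intestinal and kidney markers, Sis and Kap were at 0 in all 40 mice. Fabp2, Apoa4 and Lrp2 of the same lists were at 0 in none, with means of 52.4, 282.3 and 3.07 CPM. Vil1, Lct, Umod, Slc34a1 and Cdh16 had means of at most 0.199 CPM. Pancreatic acinar markers summed to 879.8 CPM in KO HFD mouse 10 and 149.5 CPM in KO Pio mouse 13, against at most 30.4 CPM in the other mice, and their part in the results was not tested.

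All 10 genes lie on chromosome 8 (GRCm38), in 2 arrays. The Ces1 genes are on the minus strand between Ces1b (chr8:93056728-93080017) and Ces1g (chr8:93302369-93337308), and the Ces2 and Ces3 genes on the plus strand between Ces2a (chr8:104734003-104741634) and Ces3b (chr8:105083753-105093929). Their coding ends are printed because they separate the members by the place where the protein is known to act. Each line gives the last 30 coding bases, stop codon included, of 1 annotated transcript, with the last 4 sense codons in capitals.
Ces1b: gaccctactgagcacAGAGAACACAAAtga
Ces1c: gaccctactgaacacACAGAACACAAAtga
Ces1d: ccatcccacagggaaCATGTTGAGCTCtga
Ces1e: caactgccgacagaaCACACTGAGCTGtga
Ces1f: caaccccagccatacCACAATGAGCTGtga
Ces1g: tcatcccatagggaaCATGTTGAACTGtga
Ces2a: ggttctcaggacaagCATGCAGAGCTGtag
Ces2c: gcttctcaggacaagCACAGGGAGCTTtag
Ces3a: agaagcaggaaagttCCAGAGGAGCTCtga
Ces3b: agaagcaggaaagttCCAGAGGAGCTCtga
In 6 of the 10 genes (Ces1d, Ces1e, Ces1f, Ces1g, Ces2a and Ces2c) these 4 codons read histidine, any residue, glutamate and leucine, the retention signal of the family. Ces1b and Ces1c end differently, and Ces1c is the carboxylesterase of mouse plasma. The ends of Ces3a and Ces3b are identical to each other and do not start with histidine.

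The pairs are close enough to matter for counting. Coding sequences were 95.3% identical between Ces3a and Ces3b, 88.8% between Ces1b and Ces1c, 82.2% between Ces2a and Ces2c and 81.6% between Ces1d and Ces1g. Of all stretches of 50 bases in the exons, 25.6% of those of Ces3a and 26.2% of those of Ces3b also occur in another gene, and the figures were 11.6% for Ces1b, 13% for Ces1c, 17.3% for Ces2a and 36.1% for Ces2c. The main partner of Ces2c was Ces2d-ps, and that of Ces2a was Gm7208. Ces1d, Ces1e, Ces1f and Ces1g shared 0.903% to 2.97%. For stretches of 100 bases the shares were lower, at 1.29% for Ces1b, 1.03% for Ces1c and 8.13% for Ces2a. They were 13.6% for Ces2c, 6.88% for Ces3a and 7.04% for Ces3b. The authors counted reads that aligned uniquely, so that reads lying within shared stretches were not counted. The levels of Ces1b, Ces1c, Ces2a, Ces2c, Ces3a and Ces3b are uncertain to an extent that depends on the read length, which is not given. Ces1d overlaps Gm45909 on the same strand and Ces3a overlaps Gm45724 on the opposite strand, and the strand setting of the counting is not given in the sources used here.

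Levels between genes were compared as CPM per kb of exon. Ces1c was highest with a mean of 629.4 over the 40 mice, followed by Ces3a with 486.1. Next came Ces1d with 139, Ces1f with 116.5 and Ces3b with 95.8. The order of Ces1d and Ces1f depends on the length used. Per kb of the longest transcript, Ces1f exceeded Ces1d in each of the 8 groups, with 173.4 against 135 in WT control and 170.7 against 165 in KO control livers. Ces1e, Ces1g and Ces2a stood at 51.9, 46.0 and 43.4, and their group means crossed one another. Ces1b had 25.1 and Ces2c, a retained esterase that cuts acylglycerols, had 4.34. Group means of Ces1c exceeded those of Ces3a in 7 of the 8 groups, the exception being WT HFD, where they were 674 and 675.2.

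**Figure D1:**
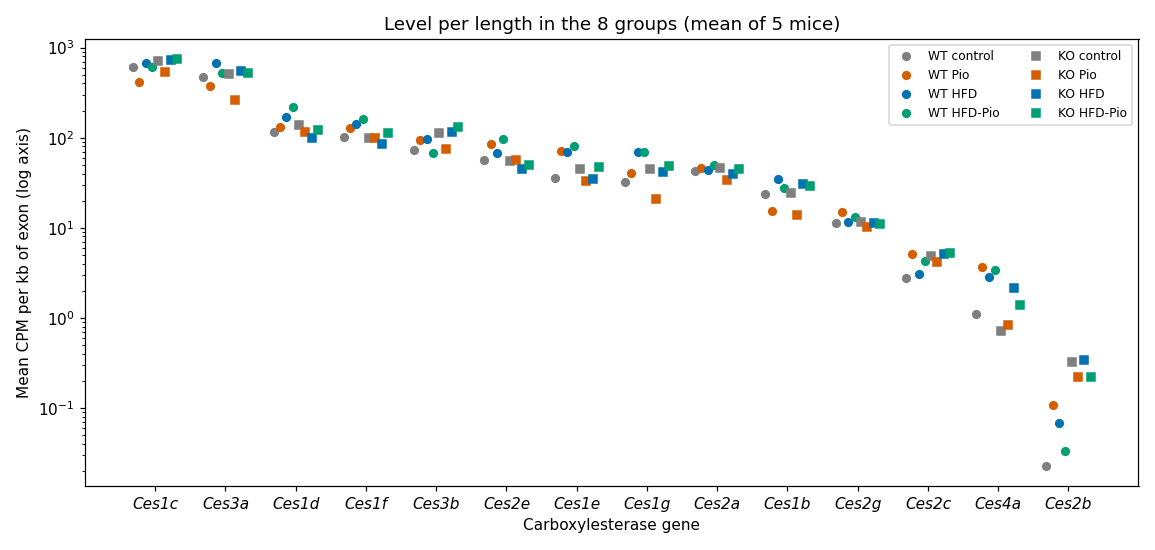
Mean level per kb of exon (log axis) of the 10 genes and of the 4 other carboxylesterase genes that passed the filter, with 1 point for the mean of 5 mice in each of the 8 groups, circles for WT and squares for KO. Ces1c and Ces3a are the highest in each group, and Ces2c is the lowest of the 10 genes.

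Ces1c and Ces3a together made up most of the family's mRNA per length. Their share of the summed level of the 10 genes was 68.2% to 74.7% in WT control and 57.9% to 61.0% in WT Pio mice, and these ranges do not overlap. In WT HFD mice it was 64.9% to 71.2% and in WT HFD-Pio mice 60.6% to 64.8%, again without overlap. In KO mice the share was 68.8% to 72.6% in control, 64.2% to 73.4% in Pio, 70.9% to 82.7% in HFD and 69.2% to 70.6% in HFD-Pio livers, so that KO control and KO Pio overlapped while KO HFD and KO HFD-Pio did not. This share was chosen after its values were seen, and no test was made of it. The 10 genes took 0.3805% ± 0.064 of all counts in WT control (mean ± SD, n = 5), 0.312% ± 0.0717 in WT Pio, 0.446% ± 0.0546 in KO control and 0.306% ± 0.133 in KO Pio livers, where mouse 13 had 0.0832%. These totals include mitochondrial counts, which were 4.84% to 7.04% in WT control and 4.68% to 21.1% in WT Pio mice. WT Pio mouse 845, with 21.1% mitochondrial counts, had the lowest share of its group at 0.222%. The part of mitochondrial counts in these shares was not tested.

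Across the 13 comparisons, 4 had at least 1 carboxylesterase gene past an adjusted p of 0.05 in the edgeR quasi-likelihood test with Benjamini-Hochberg adjustment over all 12942 genes. In KO Pio against KO control livers 3 of the 10 genes fell (Ces1b, Ces1g and Ces3a), and 1.26% of all tested genes fell. In KO HFD-Pio against KO Pio livers the same 3 genes rose, and 0.425% of all tested genes rose. In WT HFD-Pio against WT Pio livers 1 gene, Ces1b, rose, and 0.255% of all genes did. The change with Pio on control diet was lower in KO than in WT mice for 1 gene, Ces1e, against 2.49% of all genes. The comparisons share groups: KO Pio mice enter the first 2 of these and, with WT Pio, the last.

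The remaining 9 comparisons had 0 of the 10 genes past the threshold in that edgeR test. Of all genes, 3.91% passed in WT Pio against WT control, 1.31% in WT HFD against WT control, 1.08% in WT HFD-Pio against WT HFD, 0.185% in KO HFD against KO control and 0.0155% in KO HFD-Pio against KO HFD livers. At an unadjusted p under 0.05 there were 3 of the 10 genes in WT Pio against WT control, 3 in WT HFD against WT control, and 0 in the last 3 of these. DESeq2 called 2 genes in WT Pio against WT control (Ces1b and Ces1e) and 1 in WT HFD against WT control (Ces1g), and limma with sample weights called 4 in the former (Ces1b, Ces1c, Ces1e and Ces3a) and 1 in KO HFD against KO control (Ces1b), and both tools called 0 in the HFD-Pio against HFD comparisons. Among the interactions without a call, 3 of the 10 genes had an unadjusted p under 0.05 for the effect of HFD without Pio in KO minus WT, 1 for HFD under Pio, and 0 for the other 2. The share of all genes past the threshold was 0.0618%, 0.0155%, 0.0773% for diet by Pio in WT and 0.0927% for Pio on HFD by genotype. In the same order limma with sample weights called 0, 2 (Ces1d and Ces3b), 1 (Ces1c) and 0 of the 10 genes, and DESeq2 called 0 in all 4. The shares of all genes in this paragraph are those of edgeR and do not hold for DESeq2 or limma. The counts called by DESeq2 and limma are therefore not set against a background here and are not read as a result about the family.

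**Figure D2:**
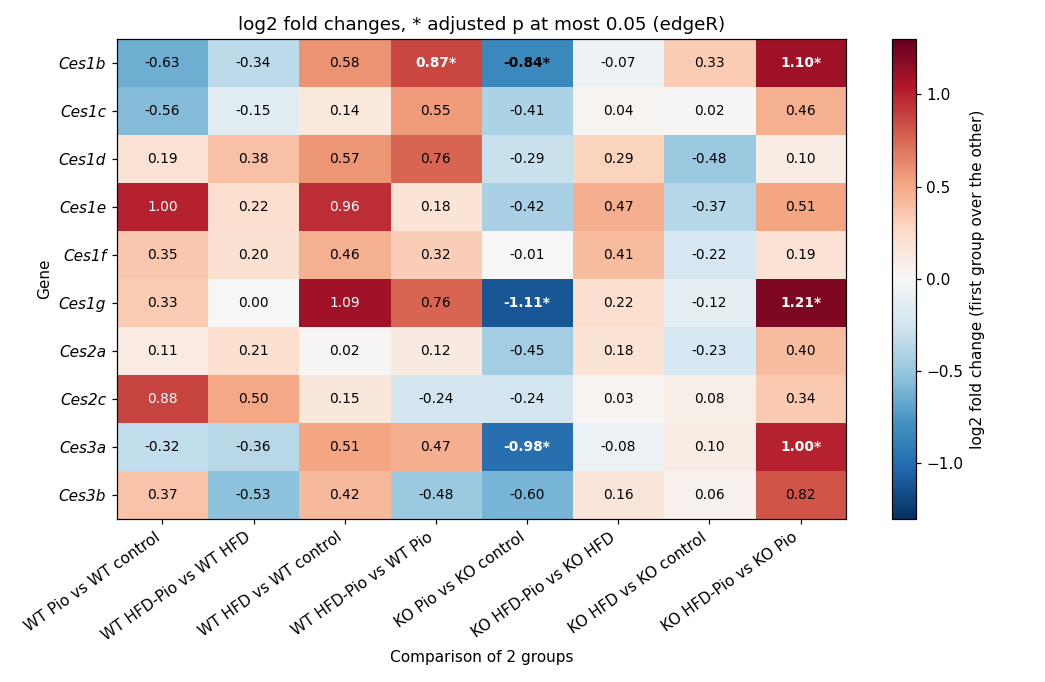
log2 fold changes of the 10 genes (rows) in the 8 comparisons of 2 groups (columns), from the edgeR fit to all 40 mice, with an asterisk at an adjusted p of at most 0.05. KO Pio against KO control is negative for all 10 genes and KO HFD-Pio against KO Pio is positive for all 10, which falls to 8 of 10 in each without mouse 13, and Ces1b passed in 3 columns.

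The median log2 fold change of the 10 genes was -0.43 in KO Pio against KO control livers (all tested genes 0.029) and 0.49 in KO HFD-Pio against KO Pio livers (all tested genes -0.018). Without mouse 13 these medians were -0.17 and 0.24, with 8 of the 10 values negative in the former (Ces1f 0.27 and Ces2c 0.069 were positive) and 8 positive in the latter (Ces1d -0.16 and Ces1f -0.063 were negative), and in each comparison only Ces1b passed, against 0.512% and 0.0931% of all genes. In WT HFD against WT control livers all 10 values were positive with a median of 0.49 (all genes 0.002). In WT Pio against WT control livers the median was 0.26, with 7 positive and 3 negative values from -0.63 to 1.00. Livers hold many cell types, and fewer cells of a type cannot be told apart from less RNA per cell in these values.

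Ces1b fell with Pio on control diet in KO livers and was higher on HFD-Pio than on Pio in livers of each genotype. KO control mice had 44.0, 43.4, 47.1, 52.1 and 54.9 CPM and KO Pio mice 31.3, 29.5, 11.6, 30.2 and 32 CPM, the third being mouse 13. All 5 KO Pio mice lay below all 5 KO control mice. The log2 fold change was -0.84 ± 0.19 (SE), with an adjusted p of 0.0126 in the edgeR quasi-likelihood test, and the exact permutation test gave 0.00794, the smallest p that 5 against 5 mice allow. Without mouse 13 it was -0.63 ± 0.15, with an adjusted p of 0.0442 in edgeR. In a fit of the 20 KO mice alone the call was lost, and 0 of all genes passed there and in KO HFD-Pio against KO Pio livers. Groups that did not overlap in this direction occurred in 2.09% of all genes.

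In WT livers Ces1b had 57.3, 35.1, 42.8, 45.2 and 51.3 CPM on control diet and 25.7, 42.7, 30.1, 26.1 and 25.0 CPM with Pio. Of the WT Pio mice 4 were below all controls, and mouse 842 lay within their range. The log2 fold change was -0.63 ± 0.19, with an adjusted p of 0.0521 in edgeR, which did not pass, and an exact permutation p of 0.0159. Without KO Pio mouse 13 the estimate was -0.62 ± 0.14, with an adjusted p of 0.00334 in edgeR. That library is in neither group of this comparison. In the fit without it 15.6% of all 12895 tested genes passed in this comparison, against 3.91% with all mice, and 6.55% passed in WT HFD against WT control and 8.68% in WT HFD-Pio against WT Pio livers. The change with Pio in KO minus that in WT mice was -0.21 (95% interval -0.74 to 0.32), with an adjusted p of 0.638 in edgeR, and -0.011 without mouse 13.

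On HFD, Ces1b had 45.3, 71.1, 91.0, 73.5 and 64.8 CPM in WT and 63.3, 58.2, 67.0, 54.2 and 60.3 CPM in KO mice. With HFD-Pio the values were 61.7, 47.6, 59.9, 53.4 and 50.8 CPM in WT and 62.4, 59.6, 44.0, 64.2 and 59.1 CPM in KO mice. The HFD-Pio mice of each genotype lay above all Pio mice of that genotype and overlapped with the HFD mice. HFD-Pio against Pio gave 0.87 ± 0.19 in WT (adjusted p = 0.0171 in edgeR) and 1.10 ± 0.19 in KO livers (adjusted p = 0.00984 in edgeR), and 0.86 ± 0.14 and 0.90 ± 0.15 without mouse 13. In WT livers 4 of the 10 genes and 2.91% of all genes separated the groups in this direction, and in KO livers 4 of the 10 and 1.23%. The WT call was lost without WT HFD-Pio mouse 838 or WT Pio mouse 845, and the 2 calls of Ces1b in KO livers were kept in each of the 40 fits that left out 1 mouse.

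HFD against control gave 0.58 ± 0.19 for Ces1b in WT livers (adjusted p = 0.126 in edgeR, and 0.0149 without KO Pio mouse 13). The change with Pio on HFD minus that on control diet was 0.29 in WT mice (95% interval -0.23 to 0.82). The same difference between diets was not tested in KO mice.

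**Figure D3:**
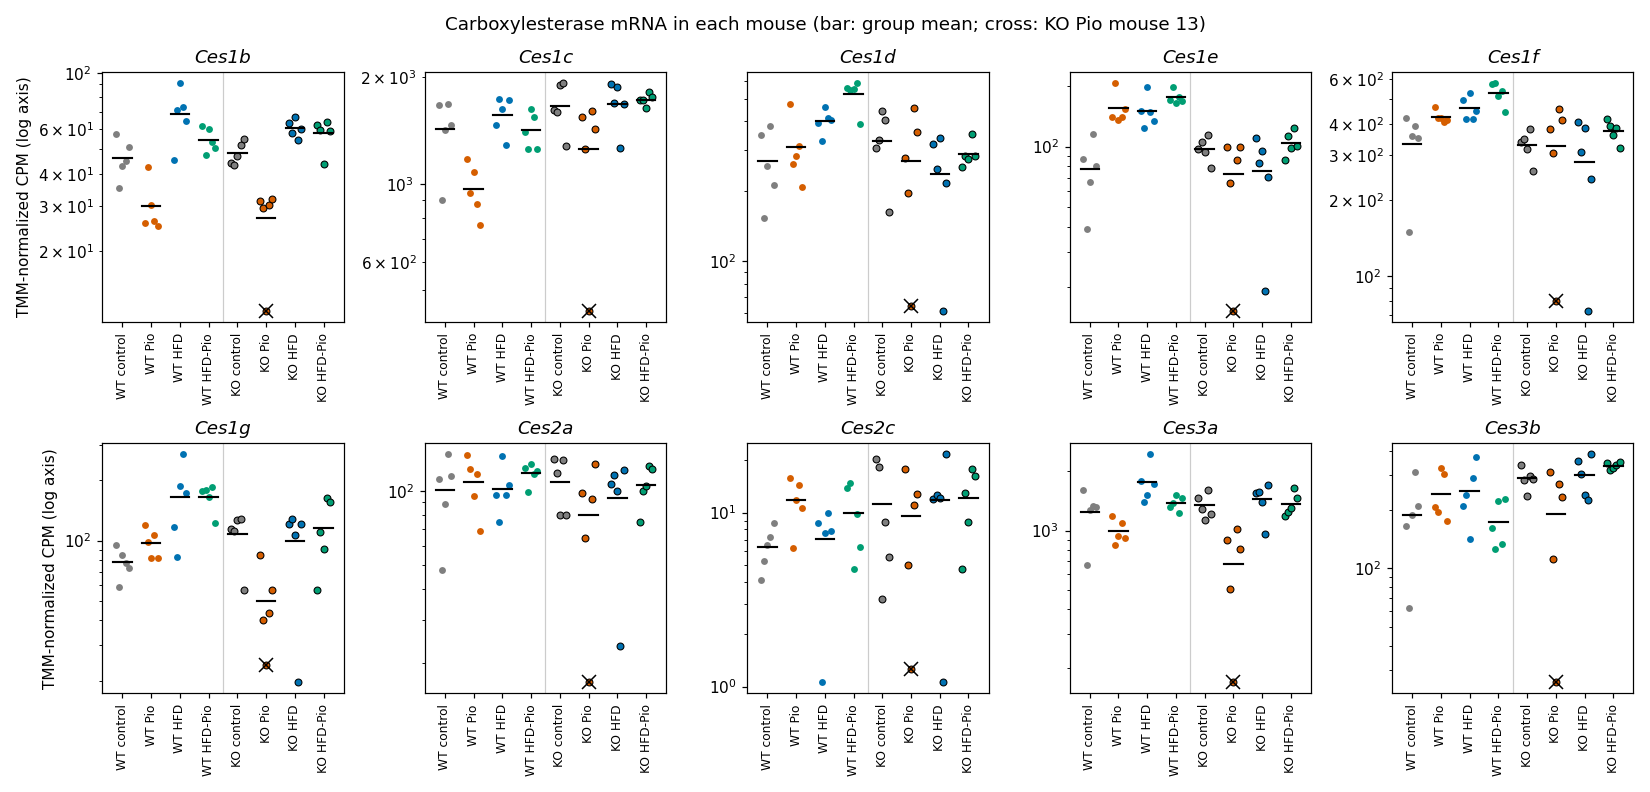
TMM-normalized CPM (log axis) of each of the 10 genes in each of the 40 mice, with 1 point for a mouse, a bar for the mean of 5, black outlines for KO mice and a cross on KO Pio mouse 13. In the Ces1b panel all 5 KO Pio mice sit below all KO control mice and 4 of 5 WT Pio mice below all WT control mice, the exception being mouse 842 at 42.7 CPM, and mouse 13 is at or near the bottom of all 10 panels.

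Ces1c, the plasma esterase and the nearest copy of Ces1b, had 1670, 900, 1414, 1674 and 1462 CPM in WT control and 1172, 942.3, 1076, 878.7 and 762.4 CPM in WT Pio mice. The groups overlap through WT control mouse 832, whose library was among the 5 that stood apart. The log2 fold change was -0.56 ± 0.21, with an adjusted p of 0.133 in edgeR, and without KO Pio mouse 13 it was -0.55 ± 0.14, with an adjusted p of 0.0071. WT HFD-Pio mice, at 1403, 1252, 1621, 1543 and 1252 CPM, lay above all WT Pio mice (log2 fold change 0.55 ± 0.21, adjusted p = 0.199 in edgeR and 0.0149 without KO Pio mouse 13). In KO livers the log2 fold change with Pio on control diet was -0.41 with all mice and -0.17 without mouse 13, and neither passed. Over the 40 mice, centred within genotype, the Spearman correlation of Ces1b with Ces1c was 0.69, a description of libraries that share depth and normalization and of genes that share 50-base stretches.

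The start regions of Ces1b and Ces1c are printed because this pair was the most alike among the promoters matched. Their relation to the values of these genes was not tested. Each line runs from 250 bases before to 50 bases after the annotated start (RefSeq, GRCm38.p6, minus strand), at chr8:93079891-93080190 for Ces1b and chr8:93131234-93131533 for Ces1c. Capitals mark runs of at least 20 bases that both windows hold.
Ces1b: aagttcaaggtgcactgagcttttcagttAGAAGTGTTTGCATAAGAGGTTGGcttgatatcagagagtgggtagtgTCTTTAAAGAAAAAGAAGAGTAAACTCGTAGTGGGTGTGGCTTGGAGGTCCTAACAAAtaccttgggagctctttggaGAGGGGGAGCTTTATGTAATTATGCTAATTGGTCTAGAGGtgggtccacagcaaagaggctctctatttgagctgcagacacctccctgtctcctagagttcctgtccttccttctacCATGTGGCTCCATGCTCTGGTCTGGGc
Ces1c: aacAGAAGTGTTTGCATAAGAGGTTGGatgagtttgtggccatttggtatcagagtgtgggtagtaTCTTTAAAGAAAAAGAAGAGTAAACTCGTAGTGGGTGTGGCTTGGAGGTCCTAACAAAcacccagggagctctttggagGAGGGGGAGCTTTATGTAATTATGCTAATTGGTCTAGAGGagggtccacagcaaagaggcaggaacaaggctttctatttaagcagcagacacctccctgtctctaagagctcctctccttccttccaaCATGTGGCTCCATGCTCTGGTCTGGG
The capitals cover 148 of the 300 bases, and 84.3% of the window was identical in the alignment of this pair. Of the other pairs, Ces2a and Ces2c reached 66.7% and Ces1c and Ces1g 58%. Promoters were matched for 7 of the 10 genes, with 2 windows for Ces1b, and none was matched for Ces1d, Ces1f and Ces3a. The letters AGGTCA, the core of a nuclear receptor site, were searched on both strands and found in 1 of these 8 windows, that of Ces2a, and in 16% of all 27025 promoters. A pair of AGGTCA copies with 1 base between them, the arrangement PPARγ and RXR bind, was in 0 of the 8 windows and in 0.0444% of all promoters. The letters CCAAT were in 7 of the 8 windows and in 37.9% of all promoters, and TATAAA in 2 and in 14.2%. Both windows of Ces1b are among those 7, whereas each gene enters the 27025 promoters once, so that the figures for CCAAT are not on the same footing.

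Ces1e, which anchors beta-glucuronidase in the endoplasmic reticulum, was the gene whose change with Pio differed by genotype. WT control mice had 86.6, 38.7, 66.5, 115.1 and 80.1 CPM and WT Pio mice 140.2, 206.6, 135.1, 140.9 and 153.3 CPM. KO control mice had 96.7, 105.4, 93.8, 114.4 and 77.8 CPM and KO Pio mice 99.0, 65.8, 15.2, 85.8 and 99.8 CPM. All WT Pio mice exceeded all WT controls, as in 4.5% of all genes, while KO Pio mice overlapped with KO controls or lay below them. The log2 fold change was 1.00 ± 0.32 in WT livers (adjusted p = 0.0696 in edgeR, exact permutation p = 0.00794) and -0.42 in KO livers, where it was -0.14 without mouse 13.

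The change of Ces1e with Pio in KO minus WT mice was -1.42 ± 0.45, with an adjusted p of 0.0472 in edgeR. Without mouse 13 it was -1.15 ± 0.37, with an adjusted p of 0.0537, so that the call was lost, and it held in 13 of the 40 fits that left out 1 mouse. Without the 5 libraries that stood apart, a setting chosen after seeing the data, Ces1e and Ces1g were called. The WT change alone was 1.02 ± 0.25 without mouse 13, with an adjusted p of 0.00562 in edgeR. WT HFD mice, at 149.6, 124.0, 197.9, 148.3 and 133.6 CPM, also exceeded all WT controls, as in 1.65% of all genes, with 0.96 ± 0.32 (adjusted p = 0.13 in edgeR, and 0.0191 without mouse 13). On HFD the change with Pio was 0.22 in WT and 0.47 in KO livers, and neither passed.

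Ces1g, a retained lipid hydrolase that limits hepatic triacylglycerol, had 114.9, 111.6, 127.3, 128.3 and 56.5 CPM in KO control and 84.5, 39.98, 23.9, 43.5 and 56.8 CPM in KO Pio mice. KO control mouse 5 was low, so that the groups overlap. The log2 fold change was -1.11 ± 0.34, with an adjusted p of 0.0391 in edgeR, and it was -0.92 ± 0.35 without mouse 13, with an adjusted p of 0.265. KO HFD-Pio mice had 56.5, 110.2, 91.2, 163.6 and 155.1 CPM, of which 4 were above all KO Pio mice, and the log2 fold change was 1.21 ± 0.34 (adjusted p = 0.0414 in edgeR, and 0.448 without mouse 13). In WT mice Ces1g had 95.1, 58.7, 85.03, 77.6 and 72.9 CPM on control diet and 117.4, 82.4, 186.3, 268.8 and 173.0 CPM on HFD. That difference was 1.09 ± 0.34 (adjusted p = 0.105 in edgeR, and 0.0401 without KO Pio mouse 13). The change with Pio on control diet in KO minus WT was -1.44 ± 0.48, with an adjusted p of 0.055 in edgeR and of 0.112 without mouse 13.

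Ces3a, the most abundant member beside Ces1c, had 1469, 1281, 1129, 1614 and 1219 CPM in KO control and 901.2, 508.3, 170.5, 1015 and 808.5 CPM in KO Pio mice, without overlap. The log2 fold change was -0.98 ± 0.26, with an adjusted p of 0.0243 in edgeR, and it was -0.71 ± 0.19 without mouse 13, with an adjusted p of 0.0806. KO HFD-Pio mice, at 1180, 1244, 1300, 1644 and 1457 CPM, lay above all KO Pio mice, with 1.00 ± 0.26 (adjusted p = 0.0399 in edgeR, and 0.124 without mouse 13). In WT livers Ces3a had 1614, 668.1, 1269, 1335 and 1322 CPM on control diet and 1182, 841.2, 940.9, 1089 and 913.0 CPM with Pio, which overlap through mouse 832. Its log2 fold change there was -0.32 (adjusted p = 0.569 in edgeR). The change with Pio in KO minus WT mice was -0.66 (95% interval -1.38 to 0.067) with all mice and -0.40 without mouse 13. Ces3b, its near-identical neighbour, gave -0.60 in KO Pio against KO control and 0.82 in KO HFD-Pio against KO Pio livers, and -0.30 and 0.53 without mouse 13, and none of these passed.

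**Figure D4:**
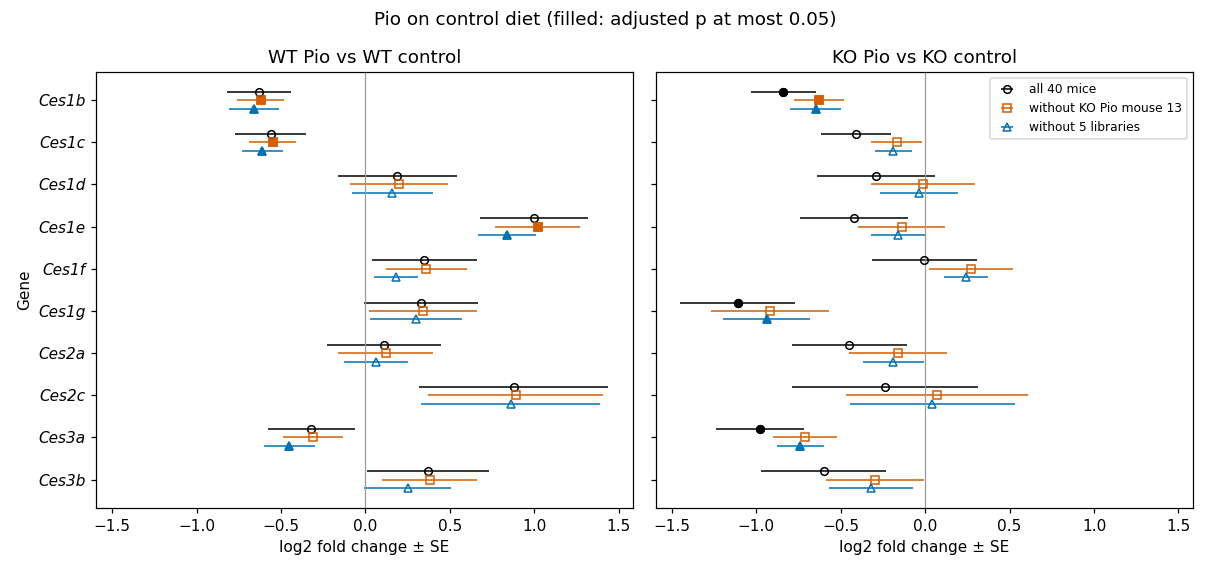
log2 fold change ± SE of each gene with Pio on control diet in WT (left) and KO mice (right), from edgeR fits to all 40 mice, without KO Pio mouse 13 and without the 5 libraries that stood apart, with filled symbols at an adjusted p of at most 0.05. Ces1b is near -0.63 in each genotype once mouse 13 is left out, and Ces1e lies at 1.00 in WT and at -0.42 in KO mice with all mice.

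Ces1d, Ces1f, Ces2a and Ces2c had no call in edgeR in any of the 13 comparisons. Ces1d, the triacylglycerol hydrolase that supplies lipid for very low density lipoprotein, had 208.1 to 477.4 CPM (median 284.2) in WT Pio and 388.1 to 583.9 CPM (median 549.6) in WT HFD-Pio mice, of which 4 exceeded all WT Pio mice. The difference was 0.76 ± 0.35 (adjusted p = 0.302 in edgeR, and 0.00582 in limma with sample weights). In this comparison limma called 6 of the 10 genes (Ces1b, Ces1c, Ces1d, Ces1g, Ces3a and Ces3b) and 2937 of all genes, against 158 of all genes in edgeR. Ces1f, a related hydrolase of lipid droplets, ranged from 73.0 CPM in KO HFD mouse 9 to 577.5 CPM in WT HFD-Pio mice, and its group means lay between 282.5 CPM in KO HFD and 529.3 CPM in WT HFD-Pio livers. Ces2a, a drug esterase that also cuts acylglycerols, had group means of 93.3 to 118 CPM, apart from KO Pio livers at 80.2 CPM, where mouse 13 had 16.7 CPM. Its 8 comparisons of 2 groups lay between -0.45 and 0.40 on the log2 scale, both of them with KO Pio mice, and these were -0.16 and 0.13 without mouse 13. Ces2c had 1.06 to 21.6 CPM. It reached 11.7 ± 3.68 CPM (SD, n = 5) in WT Pio against 6.37 ± 1.79 in WT control livers, which did not pass.

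Of 10 other carboxylesterase genes in the tables, 4 were tested (Ces2b, Ces2e, Ces2g and Ces4a) and 0 passed in any of the 8 comparisons of 2 groups with all mice. Without KO Pio mouse 13, Ces4a rose in WT Pio against WT control livers (1.72 ± 0.51, adjusted p = 0.0185 in edgeR). In that fit 15.6% of all genes passed there, in either direction. With all mice Ces4a stood at 2.71 ± 1.96 CPM (SD, n = 5) in WT control, 9.02 ± 3.82 in WT Pio and 6.96 ± 4.02 in WT HFD livers, and the log2 fold changes were 1.71 ± 0.55 (SE; adjusted p = 0.0688 in edgeR) and 1.34 ± 0.55 (adjusted p = 0.246). Ces2b, with 0 to 106 counts in a mouse, had larger but less precise values of 1.97 ± 1.16 and 1.35 ± 1.27 in the same comparisons. The 6 genes below the filter (Ces1a, Ces1h, Ces2d-ps, Ces2f, Ces2h and Ces5a) had at most 38 counts in a mouse.

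Of 16 other liver ester hydrolases, 1 rose with Pio on control diet in WT livers, Bche (butyrylcholinesterase, a plasma esterase), by 0.92 ± 0.24 (adjusted p = 0.0227 in edgeR), and 2.44% of all tested genes rose. Without KO Pio mouse 13, 4 of the 16 rose there (Bche, Esd, Pnpla2 and Nceh1), in the fit in which 15.6% of all genes passed in either direction. In KO Pio against KO control livers 2 rose (Lypla2 and Pnpla2) and 1 fell (Pon1), while 7.75% of all tested genes rose and 1.26% fell. Without mouse 13 no gene of the list passed there. The change of Bche with Pio in KO minus WT was -1.48 ± 0.34 (adjusted p = 0.00816 in edgeR) and -1.24 ± 0.26 without mouse 13 (adjusted p = 0.00381).

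Of 12 regulators of carboxylesterase and lipid genes, Nr1i3, the xenobiotic receptor CAR, passed in WT HFD against WT control livers. Of all tested genes 0.595% rose there. Nr1i3 had 18.0 to 73.5 CPM in WT control and 93.1 to 257.3 CPM in WT HFD mice, without overlap, a rise of 1.95 ± 0.39 (adjusted p = 0.00604 in edgeR). In KO mice it had 63.5 to 175.4 CPM on control diet and 23.6 to 79.0 CPM with Pio, a fall of 1.17 on the log2 scale (adjusted p = 0.0486 in edgeR, and 0.276 without mouse 13). Its change with Pio in KO minus WT was -2.08 ± 0.54 (adjusted p = 0.0191 in edgeR, and 0.0306 without mouse 13). The same difference was -1.21 for Pparg and -1.05 for Nr1h4, the bile acid receptor FXR, and -1.20 and -0.81 without mouse 13, all of which passed. Onecut1, a liver transcription factor, passed in no comparison of 2 groups with all mice. Without KO Pio mouse 13 it was lower in WT HFD-Pio than in WT HFD (-2.37 ± 0.69, adjusted p = 0.0246 in edgeR) and WT Pio livers (-2.73 ± 0.69, adjusted p = 0.014 in edgeR). Of all genes 11.6% and 8.68% passed there. In the same fit 3 regulators rose and 1 fell in WT HFD against WT control livers, where 6.55% of all genes passed. A further 1 rose in WT Pio against WT control livers, where 15.6% of all genes passed, and 1 rose in WT HFD-Pio against WT HFD livers. No relation of Nr1i3 to the carboxylesterase genes was tested.

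Markers of other cells and of the lobule moved with some of these results, and their part in them was not tested. In KO Pio against KO control livers 3 of 9 tested pericentral markers fell (Cyp2e1, Oat and Slc1a2), and 1.26% of all tested genes fell. The same 3 rose in KO HFD-Pio against KO Pio livers, and 0.425% of all tested genes rose. Without mouse 13 no marker of this list passed in these comparisons. The change of these 3 markers with Pio in KO minus WT was negative. For Oat it was -2.45 ± 0.43 with all mice and -2.25 ± 0.41 without mouse 13 (adjusted p = 0.00116 in each edgeR fit). Of 8 hepatocyte markers none passed in the 8 comparisons of 2 groups with all mice. Without KO Pio mouse 13, Apoa1 rose and Tat and Cps1 fell in WT HFD against WT control livers, and Apoa1 and Serpina1c fell in WT HFD-Pio against WT HFD livers. In that fit 6.55% and 11.6% of all genes passed in these comparisons, in either direction. Of 5 blood markers 2 rose in KO Pio against KO control livers (Hba-a1 and Hba-a2), where 7.75% of all tested genes rose. Without mouse 13, 0 blood markers passed there. Of 5 tested adipocyte markers 2 rose with Pio in WT livers on each diet (Cfd and Retn). Of all tested genes 2.44% rose with Pio on control diet and 0.603% on HFD. The paper lists Cfd among genes with previously reported regulation by PPARγ in liver. It reports that Pio induced Cfd in WT but not in KO mice on each diet. The change with Pio in KO minus WT was -7.11 on control diet and -7.82 on HFD for Cfd, and -6.87 and -5.19 for Retn. All of these passed in edgeR, while 2.49% and 0.0927% of all genes were lower. Nnat of the same list went the other way on control diet (1.49). Retn averaged 0.575 CPM and was at 0 in 5 mice. Adipoq, Lep and Plin1 were at or near 0 and did not pass the filter. The cells in which Cfd and Retn rose were not tested.

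The genes most like Ces1b over the 40 mice, by Spearman correlation of log2 CPM centred within genotype, were Hagh (0.80) and C730036E19Rik (0.78). Those most like Ces1e were Maob (0.79) and Car14 (0.78), and those most like Ces1g were 1500017E21Rik and Cyp2c50 (0.88 each). Ces2c was most like Slc15a5 (0.83) and Glul (0.81), the pericentral glutamine synthetase. Ces1c was most like Cyp2j9 (0.84) and Ctsh (0.81), Ces1d most like Akr1c14 (0.82) and Aco1 (0.81), and Ces1f most like Abhd6 (0.75) and Klhl5 (0.74). Ces2a was most like Trap1 and Naa35 (0.74 each), Ces3a most like Mug1 (0.86) and Gm15638 (0.85), and Ces3b most like Rapgef4os3 (0.74) and Serpina9 (0.72). Within the family the highest correlations were between Ces1d and Ces1f (0.80) and between Ces1b and Ces3a (0.74), and the lowest was between Ces1c and Ces2c (-0.11). Without mouse 13 these values moved by at most 0.08. All points share the depth and normalization of their library.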

How the data were processed

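Liver RNA-seq of 40 mice was used. Per the labels and methods, the authors selected poly-A RNA, aligned reads with STAR 2.0.4b to the Ensembl version of GRCm38 and counted uniquely aligned reads per gene with featureCounts 1.4.5 of Subread. The deposited values are these raw counts, without normalization, in 1 table for each genotype with 1 column per mouse. The percentage of GC deposited beside each gene is annotation by the authors and was not used. Read length and strand setting are not given in the sources used here. All columns matched a mouse number and group (0 left over), and repeated lines (574 in the WT and 598 in the KO table) were identical and kept once.

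The 355 rRNA genes were removed, as the study also left out ribosomal genes, and a gene was tested when 5 or more mice reached 1 CPM (12942 tested, 27297 not). The 8 group means were fitted in a common model with edgeR 4.0.16 in R 4.3.3 (TMM, glmQLFit robust, glmQLFTest), with Benjamini-Hochberg adjustment over all tested genes within each comparison and a threshold of 0.05. The common dispersion was 0.085. The script was tested on simulated data. CPM per mouse are TMM-normalized, and single genes were also compared by a two-sided exact permutation test of log2 CPM (prior count 2), without adjustment over the 80 pairs of gene and comparison. Intervals of 95% are normal approximations from the SE. Depth was 15789401 to 49860981 counts per mouse, so that counting error is small beside the spread between mice except for Ces2c, with as few as 18 counts.

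Alternatives were DESeq2 size factors, no filter, DESeq2 1.42.0, limma 3.58.1 with sample weights (the method of the study), each genotype fitted alone, each of the 40 mice left out and, added after seeing the data, CPM without TMM and a fit without the 5 libraries of low correlation. The tested comparisons were the effects of Pio and HFD within genotype (8) and 5 differences of effects. The 10 genes, the lists (other carboxylesterases, ester hydrolases, regulators, zonation and cell type markers) and the tests were chosen with earlier results of these data known. All 10 genes are named. Other list genes are named when they passed, up to 3 per comparison by size, and values per mouse are given for genes that passed and, for Ces1c, chosen after its values were seen. The lists of Kupffer, cholangiocyte, stellate, endothelial, pancreatic and kidney markers had 0 genes past the threshold in the 8 comparisons of 2 groups with all mice. The periportal list had 1 (Sds, higher in KO Pio against KO control), the adipocyte list a further 2 there (Nnat and Lipe), the blood list 1 lower in WT Pio against WT control (Alas2), and the intestinal list 1 lower on HFD in KO mice without and with Pio (Apoa4). The regulators Cebpa and Nr0b2 rose in KO Pio against KO control, where 7.75% of all genes rose. The hydrolase Mgll rose in WT HFD against WT control. Cebpa had a median of 315.2 and a highest value of 3604 CPM in KO Pio mice, against 279.4 to 330.3 CPM in KO control mice. Without mouse 13, 0 genes of the periportal, adipocyte and regulator lists passed in KO Pio against KO control. The intestinal list then had 0 in KO HFD-Pio against KO Pio and still 1 lower in KO HFD against KO control. The pericentral Oat rose with Pio in WT mice on each diet. Exon lengths, coding ends and shared stretches (50 and 100 bases) came from the GENCODE annotation of GRCm38, and promoters from RefSeq. RXR binding was not analysed here.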

Additional observations from a re-analysis of the deposited data

Results flagged for a closer look

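In 80 sets of 5 mice (10 genes in 8 groups), 11 had a highest or lowest mouse whose gap to the nearest other exceeded 0.71 of the range, and chance gives about 1 in 20. On the high side were Ces1b in WT Pio mouse 842 (42.7 CPM), Ces1e in the same mouse (206.6 CPM) and Ces1f in WT Pio mouse 841 (465.4 CPM). On the low side were Ces1b in KO Pio mouse 13 (11.61 CPM) and in KO HFD-Pio mouse 18 (43.96 CPM), Ces1d in WT HFD-Pio mouse 840 (388.1 CPM), Ces1f in WT control mouse 832 (149.3 CPM), Ces1g in KO control mouse 5 (56.49 CPM) and in KO HFD mouse 9 (19.71 CPM), Ces2a in KO HFD mouse 9 (23.49 CPM) and Ces2c in WT HFD mouse 827 (1.068 CPM). Mice 13, 832 and 9 were among the 5 libraries that stood apart.

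The change of Ces1e with Pio on control diet differed between genotypes by -1.42 on the log2 scale (KO minus WT) in the edgeR interaction test, with an adjusted p of 0.0472. It was lost without KO Pio mouse 13 (-1.15, adjusted p = 0.0537).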

How the results depend on the processing

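No paired analysis was possible because the mouse numbers are not shared between groups. No call changed direction under these settings. Counts of the 10 genes past the threshold moved in WT Pio against WT control (0 with edgeR) to 2 with DESeq2, 4 with limma and sample weights, 3 with WT fitted alone, 4 without the 5 libraries apart and 1 without TMM. In WT HFD against WT control (0) they moved to 1 with DESeq2, 2 with WT fitted alone and 1 without the 5 libraries. In WT HFD-Pio against WT Pio (1) they moved to 6 with limma and 2 without the 5 libraries. In KO Pio against KO control (3) they moved to 2 without the filter, where Ces1g was lost, and 0 with KO fitted alone. In KO HFD-Pio against KO Pio (3) they moved to 1 without the filter, 0 with KO fitted alone, and 2 without the 5 libraries and without TMM, where Ces1g was lost. In KO HFD against KO control (0) limma gave 1. For Pio on control diet in KO minus WT (1), the count was 0 without the filter, 2 with DESeq2, 3 with limma, 2 without the 5 libraries and 0 without TMM. For diet by Pio in WT (0) limma gave 1, for HFD without Pio in KO minus WT (0) the fit without the 5 libraries gave 1, and for HFD under Pio in KO minus WT (0) limma gave 2. The share of all genes past the threshold also differed between settings and is given only for some of them. These counts are therefore not set against a background of all genes. The causes were not tested.

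With 1 mouse left out, the counts ranged from 0 to 3 in WT Pio against WT control, 0 to 3 in WT HFD against WT control, 0 to 2 in WT HFD-Pio against WT Pio, 1 to 3 in KO Pio against KO control, 1 to 3 in KO HFD-Pio against KO Pio and 0 to 2 for Pio on control diet in KO minus WT. The WT counts of 3 came without KO Pio mouse 13, when 15.6% and 6.55% of all genes passed in these comparisons, against 3.91% and 1.31% with all mice. Ces1g and Ces3a lost their call in KO Pio against KO control without KO control mouse 1 or 4 or KO Pio mouse 13, and Ces1g also without KO control mouse 2 or 3. In KO HFD-Pio against KO Pio they lost it without mouse 13 or any of the 5 KO HFD-Pio mice. The call of Ces1e by genotype held in only 13 of the 40 fits that left out 1 mouse. It was lost in the others, among them the fit without KO Pio mouse 13.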
